A study of Mus musculus with 10 samples.

Results

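Collagen chain genes encode the polypeptides from which every collagen is wound, and they were described here in the left ventricle of mice with chronic kidney disease (CKD) and of sham-operated mice. The members were all gene entries of the expression table whose symbol is Col, a number, the letter a and a number. They numbered 43 of 23303 entries, of which 11 were fibrillar, 6 of the basement membrane type, 9 of the FACIT type, 3 short-chain and 14 of other types. Col7a1 was listed only in a joint entry with a microRNA gene and is therefore not a member. Left ventricles came from 10 male 129X1/SvJ mice, 5 with the surgery entry CKD and 5 with the entry Sham, 1 library per mouse. How CKD was induced, the age of the mice and the time after surgery are not given in the sources used here. The series is about uremic cardiomyopathy, the heart disease of kidney failure, and the question put to these genes was whether their transcript levels differed between the CKD and the Sham ventricle. Levels are FPKM (fragments per kilobase of transcript, scaled to the mapped fragments of the library), a scale per length on which genes can be set beside each other.

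A collagen is a trimer of alpha chains that wind into a triple helix, and the helix needs glycine at regular places, once in each turn of the repeat Gly-X-Y, since only glycine fits at its core. Fibrillar chains form the striped cables that carry load in the wall of the heart, with type I and type III as the main kinds and type V inside the fibrils. Basement membrane chains, those of type IV, form sheets under endothelium and around cardiomyocytes. FACIT chains (fibril-associated collagens with interrupted triple helices) sit on the surface of fibrils, short-chain collagens form open lattices, and the other types include the beaded filaments of type VI, the multiplexins XV and XVIII and the collagens that span the cell membrane. In the heart, fibroblasts are known as the chief source of fibrillar chains, while endothelial cells and cardiomyocytes also make basement membrane chains.

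The glycine repeat can be read in the genes themselves, a feature that the choice of members by symbol did not use. In fibrillar genes much of the helix is encoded by exons of 54 bases, most of which, in the 4 genes shown here, hold 6 repeats of 9 bases that open with a glycine codon. The following exons come from 4 fibrillar genes that rose in CKD (GENCODE transcripts, build GRCm38, read 5′ to 3′ on the coding strand), and they are shown because they are the unit that these genes share. Capitals mark the glycine codon that opens each repeat of 9 bases, and a glycine codon elsewhere in a repeat stays in lower case.
Col1a1, exon 8: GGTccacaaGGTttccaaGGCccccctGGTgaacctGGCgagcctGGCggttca
Col1a2, exon 8: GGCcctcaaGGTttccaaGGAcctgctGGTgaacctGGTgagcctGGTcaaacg
Col3a1, exon 6: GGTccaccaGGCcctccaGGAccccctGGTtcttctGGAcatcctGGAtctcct
Col5a2, exon 6: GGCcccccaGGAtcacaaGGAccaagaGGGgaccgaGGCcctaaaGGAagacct
They lie at chr11:94939904-94939957 (plus strand), chr6:4515481-4515534 (plus), chr1:45325360-45325413 (plus) and chr1:45434892-45434945 (minus). Exons of this kind, 54 bases long with all 6 opening glycine codons in place, numbered 21 in Col1a1, 23 in Col1a2, 24 in Col3a1 and 24 in Col5a2. Inner coding exons of 54 bases numbered the same in Col1a1, Col3a1 and Col5a2, and 24 in Col1a2. Over all 11 fibrillar genes, 48.6% of the inner coding exons (all but the first and the last) were 54 bases long. The share was 26.3% in FACIT genes, 7.77% in the other types and 4.23% in basement membrane genes, against 0.448% in protein-coding genes outside the members. The 3 short-chain genes had no inner coding exon at all: Col8a1, Col8a2 and Col10a1 each have 2 coding exons, the longer of 1904, 1916 and 1886 bases. The classes named by protein type thus differ in gene structure, and the chains whose levels rose included genes of both extremes, many short exons and 1 long one.

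Library totals were alike, at 570509 to 605007 FPKM. Among values of at most 0.2 FPKM, the ratio of a library to Sham 2 piled up at a single value in 7 libraries (27.1% to 30.9% of genes), which put their sequencing depth at 0.906 to 1.15 times that of Sham 2. In CKD 1 and Sham 1 only 1.48% and 1.82% of genes shared a ratio, so these 2 libraries, 1 per group, stood apart, and their depth could not be read. They stood apart for Tnnt2 too, a cardiomyocyte gene picked after its values were seen, at 5835 and 6222 FPKM in them and at 10001 to 11311 FPKM in the others. Among other ventricular cardiomyocyte markers, Myl2, Myl3 and Tnni3 were lower in both than in any other library, and Pln was higher. The summed level of these markers was 51832 and 54819.5 FPKM in CKD 1 and Sham 1, and 62419.5 to 66319 FPKM in the others. Actc1 and Ryr2 did not set them apart. Actc1 was at 11698 and 12543 FPKM in them and at 10338 to 12305 FPKM in the others. Ryr2 was at 119 and 193 FPKM against 132 to 195 FPKM. Why these 2 libraries stood apart was not tested. Read counts, and with them the absolute depth behind a value, are unknown. The tissue label was checked against marker genes: ventricular cardiomyocyte markers summed to between 51832 and 66319 FPKM, and 4 atrial markers to between 8.02 and 12.6 FPKM. Myh6, also on the ventricular list, was listed at 0 in all 10 libraries, as were 5594 of the 23303 entries. The reason was not tested, so a listed 0 is not read here as absence of the transcript.

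Collagen transcripts were more abundant in CKD ventricles. Summed over the 43 chains they reached 529, 709, 461, 453 and 520 FPKM in CKD 1 to 5 and 285, 300, 403, 388 and 425 FPKM in Sham 1 to 5. The groups did not overlap, and the CKD mean was 1.48 times the Sham mean (534 ± 103 against 360 ± 63.4 FPKM, SD, n = 5 each). In whole tissue, more RNA per cell and more cells of a type cannot be told apart. Type IV chains led in both groups, with Col4a1 and Col4a2 first and second, followed by Col3a1, Col1a2, Col6a1 and Col6a2. The 8 most abundant chains, which add Col1a1 and Col15a1, held 83.4% of all collagen FPKM.

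**Figure D1:**
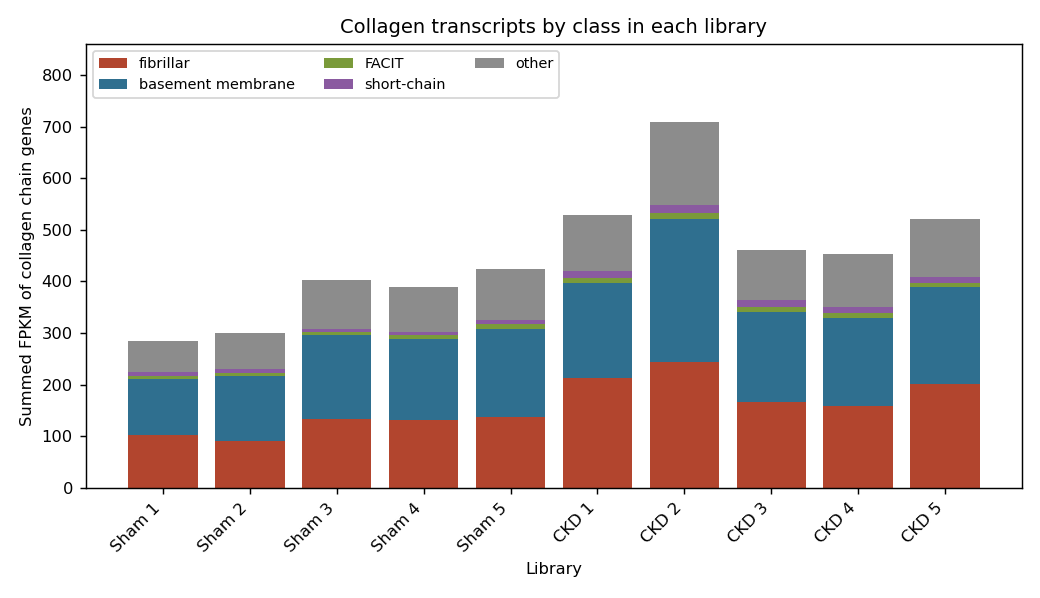
Summed FPKM of the 43 collagen chain genes in each library (bars), split by class (colours), for 5 Sham and 5 CKD mice. Every CKD bar, from 453 to 709 FPKM, is taller than every Sham bar, from 285 to 425 FPKM, and CKD 2 is the tallest.

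The mixture shifted little compared with the total. Fibrillar chains made up 36.9% ± 2.399 of collagen FPKM in CKD and 33.0% ± 2.12 in Sham, and basement membrane chains 37.1% ± 1.60 and 40.4% ± 1.34 (SD, n = 5 each), with overlap between the groups for both. The share held by Col3a1 alone was 13.9% to 17.7% in CKD and 9.46% to 13.9% in Sham, with every CKD library above every Sham library, though CKD 4 and Sham 4, the closest pair, were both at 13.9%. The shares of Col1a2 overlapped between the groups, at 9.43% ± 1.05 in CKD and 9.20% ± 1.37 in Sham. These shares are descriptions of levels and carry no test.

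Of the 43 chains, 32 had a mean of at least 0.1 FPKM over the 10 libraries and were tested. By limma, 8 of the 32 rose in CKD at an adjusted p under 0.05 (25%), where 2.75% of all 14557 tested genes rose, and none fell, where 1.69% of all genes fell (4.44% changed in either direction). At an unadjusted p under 0.05, 17 members were higher and 1, Col6a6, was lower. Of all 14557 tested genes, 1525 were higher and 1192 lower at that threshold. Groups did not overlap, with CKD on the upper side, for 10 members, against 3.99% of all tested genes. The median difference was 0.30 (log2) over the 32 members and -0.00 over all tested genes, and 28 members had a positive difference, as had 49.8% of all tested genes. Members near the filter can pass through their CKD values alone, so these counts describe the tested chains and not the whole family.

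The number of chains called depended on the libraries used, as did the number of all genes called higher, 400 with all libraries. It was 5 without CKD 2, without CKD 5 or without Sham 2, where 224, 240 and 245 of all genes were called higher. It was 3 (Col1a2, Col5a2 and Col8a1) without both CKD 1 and Sham 1, where 298 of all genes were. With all 10 libraries and a term that set CKD 1 and Sham 1 apart, an alternative chosen after seeing the data, 11 were called, the 8 and also Col6a1, Col6a2 and Col16a1, and 587 of all genes were called higher. CKD 2 held the highest value of all 10 libraries for 18 of the 22 chains with a mean of at least 1 FPKM, and Sham 1 held the lowest for 14 of them.

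**Figure D2:**
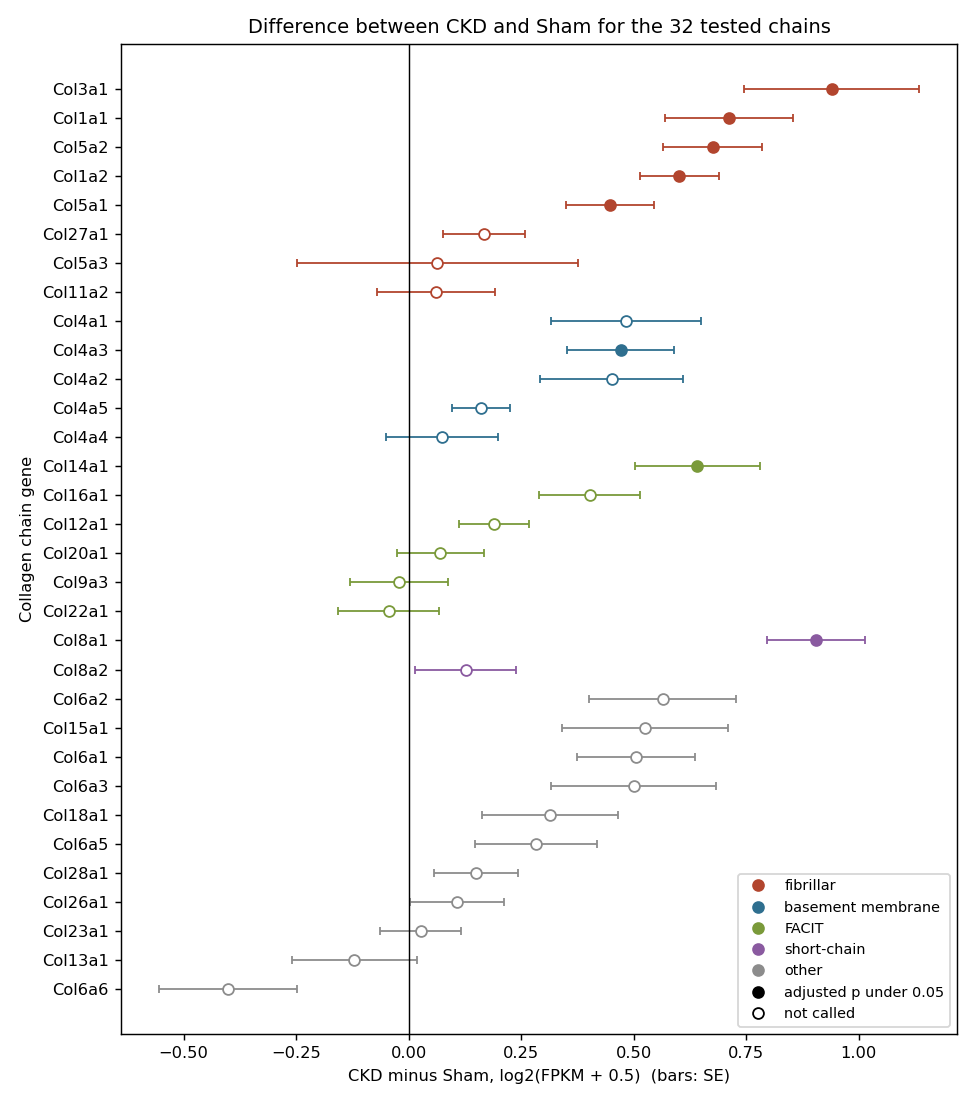
Difference between CKD and Sham on the log2(FPKM + 0.5) scale (horizontal axis, points, bars are SE) for the 32 tested chains, grouped and coloured by class, with filled points for an adjusted p under 0.05. The filled points are 5 fibrillar chains, Col4a3, Col14a1 and Col8a1, and the 4 points left of 0 are Col6a6, Col13a1, Col22a1 and Col9a3.

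Fibrillar chains accounted for 5 of the 8 calls. Of 8 tested members 5 rose and none fell, where 2.75% of all tested genes rose and 1.69% fell. Their median difference was 0.52 (log2) against -0.00 over all tested genes. Col3a1, the sole chain of type III collagen, was at 88.7, 109, 71.7, 63.1 and 92.1 FPKM in CKD 1 to 5 and at 35.4, 28.3, 51.5, 54.0 and 54.0 FPKM in Sham 1 to 5. CKD 2 was highest and Sham 2 lowest, and the groups did not overlap. The difference was 0.94 on the log2 scale (SE 0.19, limma adjusted p = 0.0194), a 1.92-fold rise. The call was lost without CKD 2, without CKD 5 or without both CKD 1 and Sham 1 (limma adjusted p up to 0.0775).

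Type I collagen consists of chains from Col1a1 and Col1a2, and both rose. Col1a1 stood at 35.1, 37.1, 23.8, 25.0 and 30.4 FPKM in the CKD mice and at 16.8, 13.7, 21.2, 19.1 and 20.2 FPKM in the Sham mice. CKD 1 and CKD 2 were the highest mice, and all CKD mice lay above Sham 3, the highest Sham mouse. It rose by 0.71 (log2, SE 0.14, 1.64-fold, limma adjusted p = 0.0166) and did not pass without both CKD 1 and Sham 1 (limma adjusted p = 0.0678). Col1a2 was at 56.5, 55.5, 45.1, 43.9 and 47.7 FPKM in CKD and 32.5, 28.6, 33.6, 30.9 and 37.2 FPKM in Sham. As for Col1a1, CKD 1 and CKD 2 were the highest mice and the groups did not overlap. It rose 1.52-fold (log2 0.60, SE 0.09, limma adjusted p = 0.00361), and the call held in all 21 alternatives tried.

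Type V chains are minor components that start and limit fibrils, and of the 3 measured, 2 rose. Col5a2 was at 11.3, 14.1, 10.0, 10.2 and 11.5 FPKM in CKD and at 5.88, 5.97, 7.33, 7.88 and 7.75 FPKM in Sham, with no overlap (1.60-fold, log2 0.68, SE 0.11, limma adjusted p = 0.00616). Col5a1 was at 10.9, 13.8, 10.7, 10.9 and 11.2 FPKM against 6.89, 7.59, 9.20, 8.55 and 9.31 FPKM in Sham, again with no overlap (1.36-fold, log2 0.45, SE 0.10, limma adjusted p = 0.0242). CKD 2 stood above the other CKD libraries for both. The call of Col5a1 was lost on leaving out CKD 2, CKD 5, Sham 2 or the pair CKD 1 and Sham 1 (limma adjusted p up to 0.0617). That of Col5a2 held in all 21 alternatives.

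Col5a3, the third type V chain, varied more between mice than between groups. Its values were 7.78, 11.7, 3.88, 4.25 and 6.69 FPKM in CKD and 3.58, 4.01, 9.05, 8.86 and 6.86 FPKM in Sham, with low libraries in both groups. The difference was 0.06 (log2, SE 0.31, limma adjusted p = 0.949), and it was negative without CKD 1, CKD 2, Sham 1 or Sham 2, without both CKD 1 and Sham 1, and with library weights (lowest -0.18). Col27a1, a fibrillar chain of cartilage and other tissues, was at 1.28 ± 0.124 FPKM in CKD against 1.09 ± 0.136 FPKM in Sham (SD, n = 5 each, limma adjusted p = 0.358), and Col11a2, a cartilage chain, at 0.470 ± 0.141 and 0.428 ± 0.123 (limma adjusted p = 0.868). The remaining fibrillar genes, Col2a1, Col11a1 and Col24a1, were below the filter.

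**Figure D3:**
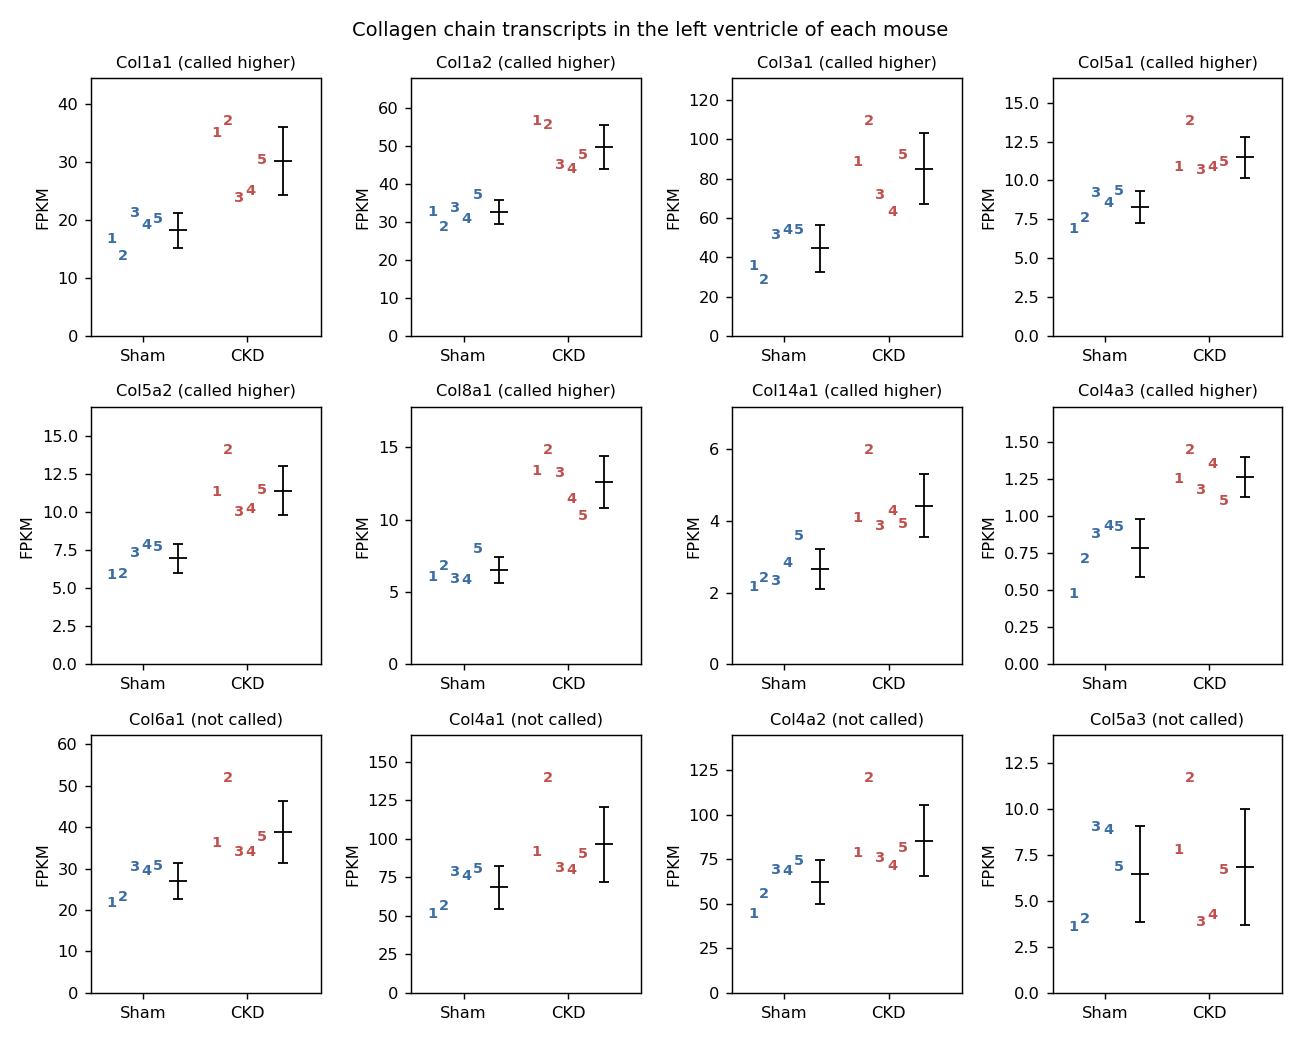
FPKM of 12 collagen chain genes in each mouse (digits are the mouse number within its group, blue for Sham and red for CKD) and, in black, their mean and SD, each vertical axis starting at 0. In the 8 chains called higher every CKD digit lies above every Sham digit, while Col5a3 has low and high mice in both groups.

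In the same libraries, markers of fibroblasts and of other cells also differed. Of 10 fibroblast markers 3 rose and none fell, where 2.75% of all tested genes rose, and their summed level was 1274 to 1462 FPKM in CKD and 1189 to 1286.5 in Sham. Of 6 myofibroblast markers 3 rose and none fell, with sums of 88.4 to 128 FPKM in CKD and 83.9 to 109 in Sham. Acta2, the most abundant of this list, had a negative difference (log2 -0.26, limma unadjusted p = 0.0195, adjusted p = 0.163), as had Comp (log2 -0.19, limma adjusted p = 0.557). Of 8 macrophage markers 5 rose, with sums of 218 to 334 FPKM in CKD and 144 to 170 in Sham. No marker of these 3 lists was at 0 in all libraries, and their part in the collagen differences was not tested. Of 8 endothelial and 8 smooth muscle and pericyte markers, 0 and 0 were called by limma (0 and 2 at an unadjusted p under 0.05), with sums of 246 to 309 against 258 to 286 FPKM and of 182 to 204 against 166 to 194 FPKM. Markers of valve or cartilage (4 of 7 tested), epicardium (5), Schwann cells (4 of 5) and adipocytes (5) were low, each list summing to at most 11.4 FPKM in any library. None of them was called (0, 0, 0 and 1 at an unadjusted p under 0.05). Of all 14557 tested genes, 1525 were higher and 1192 lower at that unadjusted threshold.

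Basement membrane chains were the most abundant collagens, and 1 of 5 tested members, Col4a3, rose (median log2 0.45 over the 5), where 2.75% of all tested genes rose. Of the 5, 4 were higher and 0 lower at an unadjusted p under 0.05, where 1525 and 1192 of all 14557 tested genes were. Col4a1 and Col4a2 encode the type IV chains found in nearly all basement membranes. Col4a1 was at 91.2, 139, 81.4, 79.6 and 90.4 FPKM in CKD and at 51.1, 56.2, 78.8, 75.9 and 80.4 FPKM in Sham. CKD 4 lay within the Sham range, and CKD 2 lay far above the other mice. The difference of 0.48 (log2, SE 0.17) did not pass (limma adjusted p = 0.132, unadjusted p = 0.0134), and it was 0.34 without CKD 2. Col4a2 was at 78.5, 121, 75.8, 71.5 and 81.3 FPKM in CKD and 44.3, 55.7, 69.3, 68.2 and 74.3 FPKM in Sham (log2 0.45, SE 0.16, limma adjusted p = 0.142). Both chains showed the same order of mice within CKD at the top and bottom, CKD 2 highest and CKD 4 lowest.

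The type IV genes lie in head-to-head pairs in GRCm38, transcribed away from a shared start region. Col4a1 and Col4a2 overlap by 85 bases on chromosome 8, Col4a3 and Col4a4 by 114 bases on chromosome 1, and Col4a5 and Col4a6 are 1274 bases apart on the X chromosome. The members of a pair did not always show the same values. Col4a3, a chain known best from the glomerular basement membrane of the kidney, was at 1.25, 1.45, 1.18, 1.35 and 1.10 FPKM in CKD and at 0.471, 0.7095, 0.876, 0.929 and 0.928 FPKM in Sham. The ratio of the means was 1.61, and the rise on the log2(FPKM + 0.5) scale was 1.39-fold (log2 0.47, SE 0.12, limma adjusted p = 0.0469). This call was the least stable of the 8, lost in 14 of 21 alternatives, among them leaving out any 1 library but Sham 5 (limma adjusted p up to 0.115). Its head-to-head partner Col4a4 was at 1.32, 1.87, 1.39, 1.73 and 1.58 FPKM in CKD and 1.07, 1.36, 1.81, 1.80 and 1.38 FPKM in Sham, with broad overlap (log2 0.07, SE 0.12, limma adjusted p = 0.816). The ratio of Col4a4 to Col4a3 was 1.06 to 1.43 in CKD and 1.49 to 2.27 in Sham, without overlap, a ratio chosen after these values were seen and so given with no test. The sources used here do not say to which gene reads from the overlap were counted.

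Of the X-linked pair, Col4a5 was measured at 13.9 ± 0.797 FPKM in CKD against 12.4 ± 0.873 FPKM in Sham (SD, n = 5 each). Its libraries ran 12.9, 14.7, 13.9, 14.7 and 13.4 FPKM in CKD against 12.6, 12.01, 11.6, 11.95 and 13.8 FPKM in Sham, so the groups overlapped (log2 0.16, SE 0.06, limma adjusted p = 0.196). Col4a6 was listed at 0 in 5 libraries and at no more than 0.0308 FPKM in the rest, far below its neighbour.

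Among FACIT chains 1 of 6 tested members rose, where 2.75% of all tested genes rose. Of the 6, 3 were higher and 0 lower at an unadjusted p under 0.05, where 1525 and 1192 of all 14557 tested genes were. Col14a1, whose protein binds fibril surfaces and is made by fibroblasts, was at 4.09, 5.97, 3.86, 4.27 and 3.92 FPKM in CKD and at 2.16, 2.42, 2.32, 2.81 and 3.57 FPKM in Sham. The groups did not overlap, with CKD 2 highest and Sham 5 closest to the CKD mice (1.56-fold, log2 0.64, SE 0.14, limma adjusted p = 0.0239). The call was lost without Sham 1, Sham 2 or Sham 3 and without both CKD 1 and Sham 1 (limma adjusted p up to 0.0683). Col16a1 was at 2.82, 3.95, 3.09, 3.36 and 2.81 FPKM in CKD and 1.87, 2.15, 2.33, 2.35 and 2.82 FPKM in Sham. Here Sham 5 lay just above CKD 5, and the difference did not pass (log2 0.40, SE 0.11, limma adjusted p = 0.0652).

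Col12a1, the closest relative of Col14a1 among the FACIT chains, was far less abundant. It was at 0.170, 0.202, 0.169, 0.152 and 0.180 FPKM in CKD and at 0.0842, 0.0669, 0.0939, 0.132 and 0.0820 FPKM in Sham, with no overlap. The ratio of the means was 1.90, while the difference on the log2(FPKM + 0.5) scale, which understates changes at such low levels, was 0.19 (SE 0.08, limma adjusted p = 0.217). Its Sham mean of 0.0918 FPKM lay below the filter, so it was tested through its CKD values. It was called only where no filter was set. Col20a1 was at 1.14, 1.25, 1.06, 1.42 and 1.46 FPKM in CKD against 1.14, 1.22, 1.04, 1.12 and 1.39 FPKM in Sham, the same range in both groups (log2 0.07, limma adjusted p = 0.764). Col22a1, known from tissue junctions such as that of muscle and tendon, was at 0.396 ± 0.0732 and 0.429 ± 0.131 FPKM, and Col9a3 at 0.158 ± 0.0377 and 0.173 ± 0.0902 FPKM in CKD and Sham (SD, n = 5 each).

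The short-chain collagen Col8a1 had the smallest p of all collagen chains. Type VIII collagen is a lattice-forming collagen of vessel walls and of remodelling tissue. Col8a1 was at 13.3, 14.8, 13.2, 11.4 and 10.3 FPKM in CKD and at 6.03, 6.78, 5.89, 5.83 and 7.96 FPKM in Sham. Every CKD mouse lay above every Sham mouse, and no single library stood far from its group. The rise was 1.87-fold (log2 0.91, SE 0.11, limma adjusted p = 0.00144), and it held in all 21 alternatives (limma adjusted p from 0.000789 to 0.00985). The second chain of type VIII, Col8a2, was at 0.0954, 0.289, 0.0541, 0.169 and 0.159 FPKM in CKD against 0.0776, 0.103, 0.140, 0.0204 and 0.137 FPKM in Sham, with overlap (log2 0.13, SE 0.11, limma adjusted p = 0.611). The third member, Col10a1 of growth cartilage, was above 0 in 1 CKD and 1 Sham library only, at 0.0255 and 0.0288 FPKM.

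Col8a1 and Col3a1 had the 2 largest log2 differences of the 32 tested chains with all 10 libraries, and the 250 bases before their RefSeq start sites are shown as examples of unlike letters upstream of genes whose levels moved alike. Capitals mark matches on either strand to 3 motifs known from vertebrate promoters. The CCAAT box was searched as CCAAT, the TATA box as TATAAA and the GC box as GGGCGG, and no match overlapped another.
Col8a1 promoter: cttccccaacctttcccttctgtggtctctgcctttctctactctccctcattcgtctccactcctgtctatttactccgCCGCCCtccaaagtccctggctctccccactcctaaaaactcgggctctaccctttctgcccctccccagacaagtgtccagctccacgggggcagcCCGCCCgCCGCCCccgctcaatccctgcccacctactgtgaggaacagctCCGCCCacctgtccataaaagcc
Col3a1 promoter: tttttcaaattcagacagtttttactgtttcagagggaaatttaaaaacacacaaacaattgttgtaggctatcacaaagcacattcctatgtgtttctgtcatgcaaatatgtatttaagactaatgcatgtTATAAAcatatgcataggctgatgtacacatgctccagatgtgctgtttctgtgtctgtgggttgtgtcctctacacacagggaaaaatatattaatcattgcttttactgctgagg
The windows are chr16:57754738-57754987 on the minus strand and chr1:45311288-45311537 on the plus strand (GRCm38.p6). Col8a1 held 4 matches to GGGCGG and none to the other motifs, and Col3a1 held 1 match to TATAAA that began 117 bases before the start and none to GGGCGG or CCAAT. The table held promoters for 34 of the 43 members (37 windows). GGGCGG occurred in 21 of these windows (56.8%), against 32.7% of all 32851 promoters, CCAAT in 12 (32.4% against 33.8%) and TATAAA in 5 (13.5% against 12.4%). These are letter matches in a fixed window and describe no bound factor.

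None of the 11 tested chains of the other types was called by limma (median log2 0.28). Over chains with a mean of at least 1 FPKM, the median was 0.50 for the 6 of the other types. It was 0.60 for 7 fibrillar, 0.45 for 5 basement membrane and 0.40 for 3 FACIT chains, and -0.00 over all genes at that level. At an unadjusted p under 0.05, 4 of the 11 were higher and 1 lower, as were 1525 and 1192 of all 14557 tested genes. Type VI collagen, a beaded filament that links cells to the matrix around them, needs the products of Col6a1, Col6a2 and one further chain. Col6a1 was at 36.1, 51.8, 34.0, 34.1 and 37.7 FPKM in CKD and at 21.6, 23.2, 30.3, 29.5 and 30.7 FPKM in Sham. The groups did not overlap, and the difference fell just short of the threshold (log2 0.50, SE 0.13, limma adjusted p = 0.0513). Col6a2 was at 31.7, 49.1, 30.6, 31.8 and 32.9 FPKM in CKD and 16.6, 21.1, 25.7, 24.4 and 31.1 FPKM in Sham (log2 0.56, SE 0.16, limma adjusted p = 0.0760). Sham 5 lay above CKD 3 for this chain, and CKD 2 stood far above the rest. Without Sham 5, and with a term for CKD 1 and Sham 1, both chains were called (limma adjusted p = 0.0472 and 0.0374 without Sham 5, 0.0352 and 0.0416 with the term). Col6a1 was also called with a filter of at least 1 FPKM and with a robust variance model, so in 4 of 21 alternatives, and Col6a2 in 2.

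The third chains of type VI differed in direction. Col6a3 was at 6.71 ± 1.56 FPKM in CKD against 4.64 ± 1.26 FPKM in Sham (log2 0.50, SE 0.18, limma adjusted p = 0.159). Col6a5, at 0.373 ± 0.156 against 0.214 ± 0.0953 FPKM (CKD against Sham, SD, n = 5), lies 27823 bases from Col6a6 on chromosome 9. Col6a6 was the chain with the most negative difference, at 2.76, 2.04, 1.62, 2.58 and 3.28 FPKM in CKD against 3.09, 2.67, 4.06, 3.50 and 3.45 FPKM in Sham, with overlap (log2 -0.40, SE 0.15, limma adjusted p = 0.176). Neither Col6a5 (limma adjusted p = 0.291) nor Col6a6 passed.

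Of the multiplexins, whose C-terminal fragments include endostatin in the case of type XVIII, Col15a1 was abundant and Col18a1 was not. Col15a1, a chain of the basement membrane zone of muscle and capillaries, was at 27.8, 42.3, 21.7, 25.1 and 25.9 FPKM in CKD and at 14.2, 15.9, 24.5, 19.8 and 23.7 FPKM in Sham. CKD 3 lay within the Sham range, and the difference did not pass (log2 0.53, SE 0.18, limma adjusted p = 0.139). Col18a1 was at 2.83 ± 0.563 FPKM in CKD against 2.20 ± 0.512 FPKM in Sham (limma adjusted p = 0.292). The membrane-spanning Col13a1 (0.405 ± 0.157 against 0.480 ± 0.138 FPKM) and Col23a1 (0.799 ± 0.132 against 0.771 ± 0.0555 FPKM) and the lowly expressed Col26a1 (0.213 ± 0.0749 against 0.161 ± 0.0654 FPKM) differed by less than the SD within the groups. Col28a1, known from Schwann cells, was at 0.136 ± 0.0522 FPKM in CKD against 0.0725 ± 0.0371 FPKM in Sham (limma adjusted p = 0.430), while 5 Schwann cell markers summed to 5.42 to 7.36 and 5.10 to 7.33 FPKM in the same groups.

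Chains that share a trimer or a fibril were compared by their ratio within each library, by an exact permutation test over the 10 mice (two-sided, smallest possible p = 0.00794, Benjamini-Hochberg adjustment over 7 ratios). The ratio of Col5a2 to Col5a1 was 1.04, 1.02, 0.938, 0.934 and 1.03 in CKD 1 to 5 and 0.853, 0.787, 0.798, 0.922 and 0.832 in Sham 1 to 5. All CKD ratios lay above all Sham ratios (log2 0.24, SE 0.05, exact p = 0.00794), yet the value adjusted over the 7 ratios was 0.0556. No single ratio at this design's smallest p can pass after that adjustment. Col3a1 over Col1a1, the ratio of type III to type I chains, was 2.81 ± 0.262 (SD, n = 5) in CKD against 2.42 ± 0.335 (SD, n = 5) in Sham ( log2 0.22, SE 0.11, exact p = 0.0794, adjusted p = 0.278). Col1a2 over Col1a1 was 1.67 ± 0.160 and 1.81 ± 0.214 (log2 -0.12, SE 0.10, exact p = 0.246).

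Col4a2 over Col4a1 stayed between 0.860 and 0.990 in all 10 libraries (log2 -0.03 between groups, SE 0.04, exact p = 0.460), although Col4a1 itself ranged from 51.1 to 139 FPKM. Col6a2 over Col6a1 lay between 0.767 and 1.01 (log2 0.06, SE 0.07, exact p = 0.437), and Col6a3 over Col6a1 between 0.143 and 0.197 (log2 0.04, SE 0.10, exact p = 0.714). Col8a2 over Col8a1 was at or below 0.0239 in every library and varied several-fold within both groups (log2 -0.22, SE 0.63, exact p = 0.754), with Col8a2 itself at 0.0204 to 0.289 FPKM. None of the 7 ratios passed after adjustment.

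**Figure D4:**
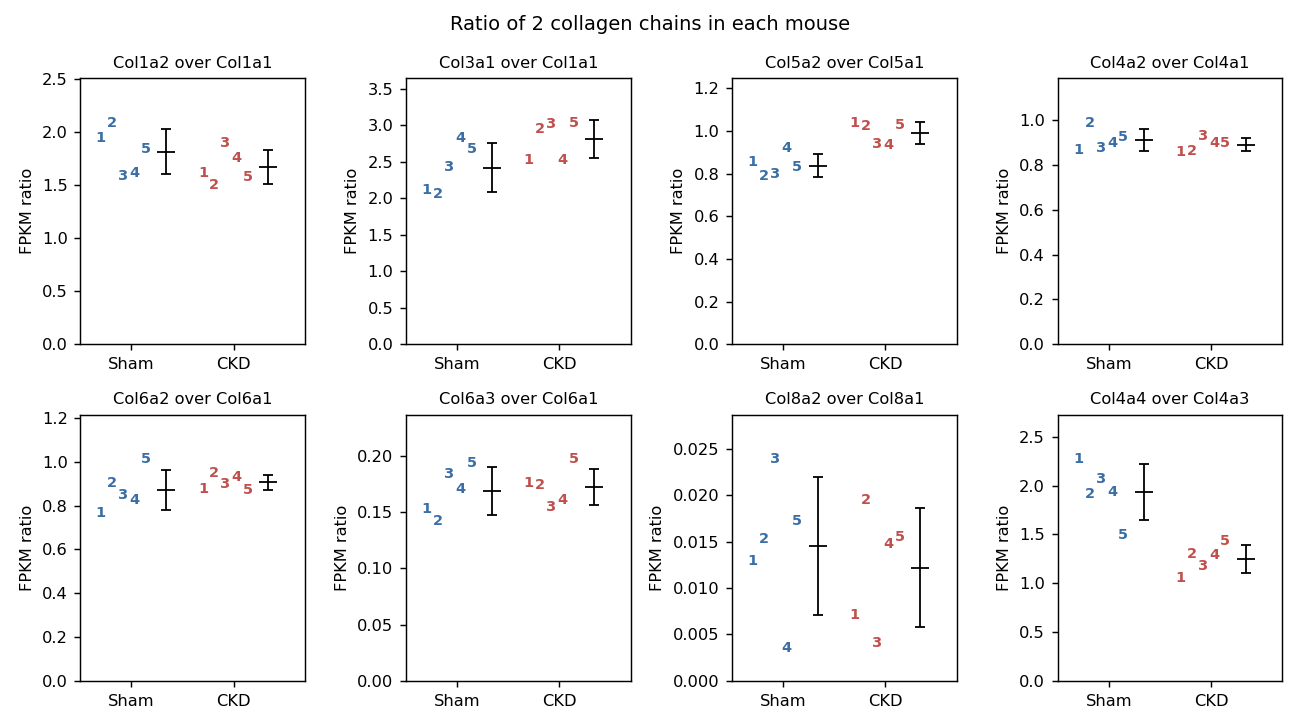
Ratio of FPKM of 2 collagen chains in each mouse (digits are the mouse number within its group, blue for Sham and red for CKD) with group mean and SD in black, each vertical axis starting at 0. Col5a2 over Col5a1 and Col4a4 over Col4a3 separate the groups, in opposite directions, and Col4a2 over Col4a1 stays between 0.860 and 0.990.

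Collagen chains are modified and folded in the endoplasmic reticulum, exported, trimmed outside the cell, cross-linked and bound by receptors, and 4 lists of 46 such genes were examined. Of the 45 tested, 7 rose and 1 fell (median log2 0.11), against 2.75% and 1.69% of all tested genes. In the modification and folding list, none of 18 tested genes rose by limma and 1 fell. At an unadjusted p under 0.05, 3 of the 18 were higher, as were 1525 of all 14557 tested genes. Serpinh1, the collagen chaperone HSP47, was at 99.5 ± 8.73 FPKM in CKD against 99.9 ± 7.39 FPKM in Sham, and P4hb, a subunit of prolyl 4-hydroxylase, at 127 ± 4.18 and 119 ± 10.0 (SD, n = 5 each, limma adjusted p = 0.974 and 0.417). The gene that fell was Leprel4, whose product belongs to the prolyl 3-hydroxylase family and is needed for lysine modification of collagen, from 15.0 ± 1.75 to 11.1 ± 0.892 FPKM (log2 -0.42, SE 0.09, limma adjusted p = 0.0197), with Sham 4 at 12.2 inside the CKD range. Its call was lost without CKD 2, CKD 3, CKD 5, Sham 2 or Sham 3 and without both CKD 1 and Sham 1.

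Of 11 genes for export and propeptide cleavage, 3 rose and none fell, where 2.75% of all tested genes rose and 1.69% fell. Adamts2, the main protease that removes N-terminal propeptides from fibrillar procollagen, was at 6.02, 6.87, 5.83, 4.73 and 6.97 FPKM in CKD and at 3.62, 3.45, 3.43, 3.73 and 4.12 FPKM in Sham. The groups did not overlap (log2 0.65, SE 0.10, limma adjusted p = 0.00474). Pcolce and Pcolce2 encode enhancers of C-terminal propeptide cleavage, and they rose from 35.3 ± 3.49 to 47.9 ± 6.61 FPKM and from 15.5 ± 2.096 to 20.6 ± 1.52 FPKM (SD, n = 5 each, limma adjusted p = 0.0282 and 0.0233). One Sham mouse lay within the CKD range for each, Sham 5 for Pcolce and Sham 2 for Pcolce2. The call of Pcolce was lost in 7 of 21 alternatives (without CKD 2, CKD 5, Sham 1, Sham 2, Sham 3 or Sham 4, or both CKD 1 and Sham 1) and that of Pcolce2 in 5 (without CKD 2, CKD 3, Sham 3 or Sham 4, or both CKD 1 and Sham 1), while that of Adamts2 held in all 21. The 2 most abundant genes of the list were Pcolce and Ctage5, an export factor of the endoplasmic reticulum, at 31.3 ± 3.14 FPKM in CKD against 34.7 ± 1.67 FPKM in Sham (limma adjusted p = 0.260).

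Lysyl oxidases, which cross-link collagen and elastin, were called higher for 3 of 5 genes and lower for none. Over all tested genes 2.75% were called higher and 1.69% lower. Loxl2 was at 8.42, 11.1, 9.43, 8.11 and 8.29 FPKM in CKD and at 4.62, 5.26, 4.69, 4.81 and 6.07 FPKM in Sham (log2 0.77, SE 0.10, limma adjusted p = 0.00207). Loxl3 was at 2.08, 2.01, 1.96, 1.99 and 2.09 FPKM in CKD against 1.35, 1.28, 1.39, 1.26 and 1.73 FPKM in Sham (log2 0.41, SE 0.08, limma adjusted p = 0.0184). Neither gene's groups overlapped, and the CKD values of Loxl3 lay close together. The call of Loxl3 was lost without both CKD 1 and Sham 1, and that of Loxl2 held in all 21 alternatives. Lox was at 4.19, 3.38, 3.83, 3.05 and 4.53 FPKM in CKD and at 2.91, 2.91, 2.49, 2.85 and 2.16 FPKM in Sham (log2 0.44, SE 0.11, limma adjusted p = 0.0499), a call at the threshold that was lost in 12 of 21 alternatives, among them leaving out any 1 library but CKD 4. Loxl1, the most abundant of the family here, was at 13.5 ± 2.82 FPKM in CKD against 10.5 ± 1.28 FPKM in Sham (SD, n = 5 each, limma adjusted p = 0.195).

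Among 11 collagen receptors only Mrc2 was called, where 4.44% of all tested genes were called in either direction. Mrc2, the endocytic receptor Endo180 that takes up collagen for breakdown, was at 6.80, 7.01, 6.22, 6.68 and 6.67 FPKM in CKD and at 4.30, 4.54, 4.36, 4.78 and 5.53 FPKM in Sham (log2 0.47, SE 0.08, limma adjusted p = 0.00626). The call held in all 21 alternatives. Itgb1, the beta 1 integrin subunit shared by the collagen-binding integrins, was at 148 ± 4.22 FPKM in CKD against 139 ± 6.01 FPKM in Sham (SD, n = 5 each, limma adjusted p = 0.285). Gpr56, an adhesion receptor for type III collagen, was at 27.5 ± 5.02 and 22.5 ± 2.64 FPKM (limma adjusted p = 0.274).

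**Figure D5:**
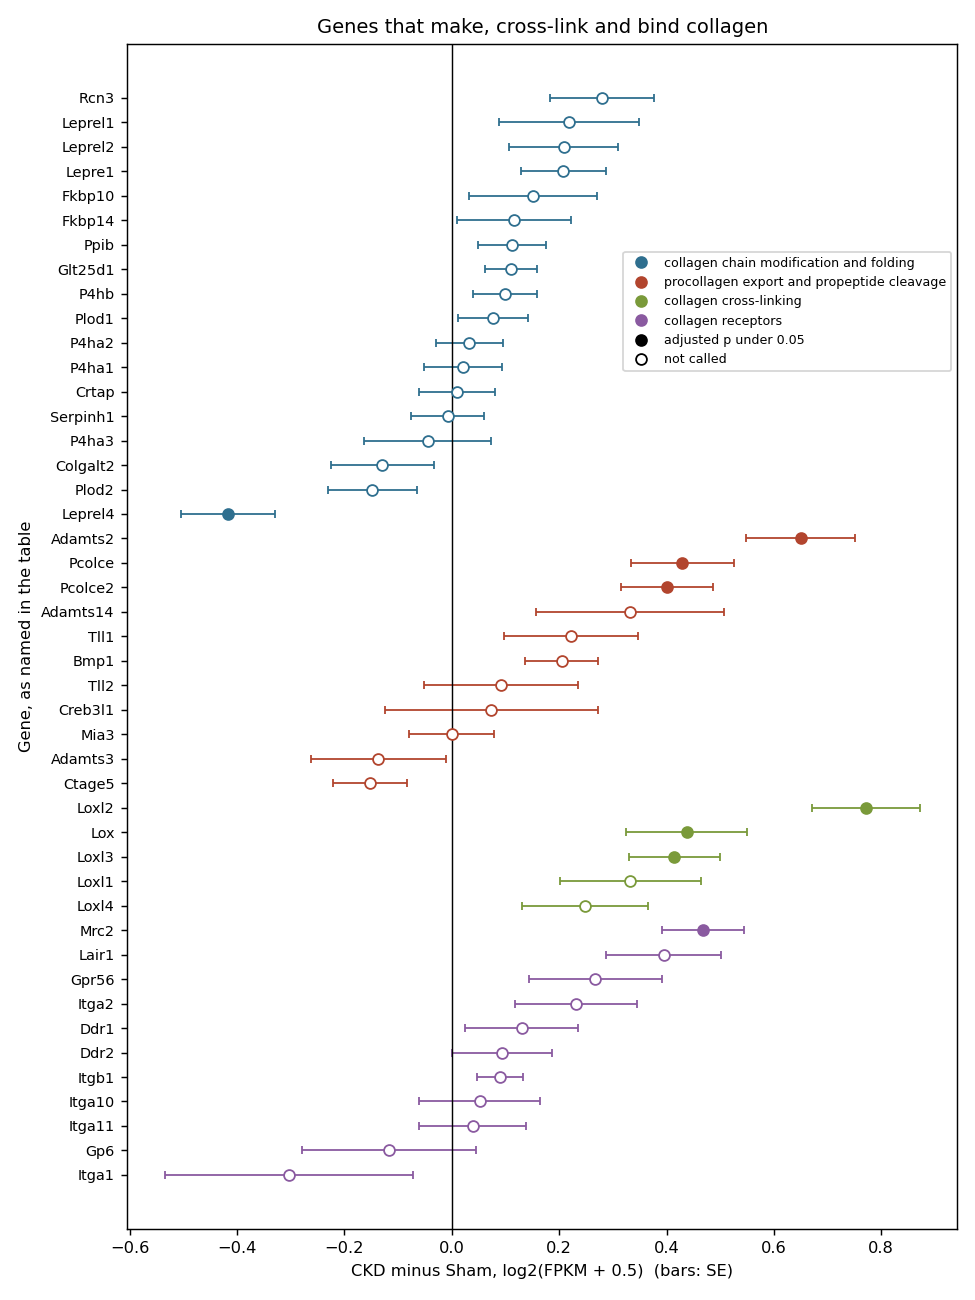
Difference between CKD and Sham on the log2(FPKM + 0.5) scale (horizontal axis, points, bars are SE) for 45 tested genes that modify, export, cleave, cross-link or bind collagen, coloured by list, with filled points for an adjusted p under 0.05. The filled points right of 0 are Adamts2, Pcolce, Pcolce2, Loxl2, Lox, Loxl3 and Mrc2, and the 1 left of 0 is Leprel4.

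Of the 8 chains that rose, 3 lie on chromosome 1 and the others on separate chromosomes (GRCm38.p6, RefSeq gene bounds). Col3a1 (chr1:45311538-45349706) and Col5a2 (chr1:45374331-45503282) are neighbours, tail to tail with 24624 bases between them, and both rose. The others are Col1a1 (chr11:94936224-94953042), Col1a2 (chr6:4505618-4541543), Col5a1 (chr2:27886381-28039510), Col4a3 (chr1:82586921-82722059), Col14a1 (chr15:55307644-55520803) and Col8a1 (chr16:57624256-57754737). Col9a1 and Col19a1 are likewise tail to tail on chromosome 1 with 4944 bases between them, and both were close to 0.

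The 11 chains under the filter were Col2a1, Col11a1, Col24a1, Col4a6, Col9a1, Col9a2, Col19a1, Col10a1, Col6a4, Col17a1 and Col25a1. Just outside the filter were Col9a2 (mean 0.0969 FPKM over the 10 libraries) and Col25a1 (0.0926), and just inside it Col28a1 (0.104) and Col8a2 (0.125). Col9a2 ranged from 0.0514 to 0.294 FPKM in CKD and from 0 to 0.131 in Sham. Col9a1, a cartilage chain, was above 0 in Sham 4 only, at 0.0228 FPKM. Col2a1, the type II chain of cartilage, was listed at 0 in 6 of 10 libraries and did not exceed 0.0209 FPKM. Col17a1, of epithelial hemidesmosomes, and Col6a4 were at or below 0.0721 FPKM in every library.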

How the data were processed

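Gene expression was measured by poly(A) RNA sequencing of 10 left ventricles, with 100-base single reads per the labels' protocols. The deposited table gives FPKM per gene and library, made by the authors with STAR 2.4.0f1, Cufflinks 2.1.1 and Cuffdiff 2.1.1, with the builds mm10 and hg19 both named, per the submitters' processing notes. Groups were taken from the surgery entry of each sample. Replicate numbers follow deposit order and pair no mice.

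Values were tested as log2(FPKM + 0.5) with limma 3.58.1 (R 4.3.3, two-sided, eBayes with a variance trend) over 14557 entries with a mean of at least 0.1 FPKM. P-values were adjusted by Benjamini-Hochberg over all of these, with a threshold of 0.05. The script was tested on simulated data. A fold change on this scale understates changes of low genes. FPKM hold no read counts, so no count model was used. Every chain could be named. Values per mouse were given for called or non-overlapping chains, the 3 most abundant of each class and, chosen after their values were seen, Col5a3, Col4a4 and Col6a6. Of pathway lists the called genes and the 2 most abundant were named. Members, classes and gene lists were chosen with earlier results of these data known. Alternatives were other pseudocounts, filters, scalings and variance models, library weights and left-out libraries. Exons came from GENCODE vM21, gene bounds and promoters from RefSeq GRCm38.p6.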

Additional observations from a re-analysis of the deposited data

Results flagged for a closer look

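In 80 groups of 5 libraries, 7 held a value far from the other 4 (by Dixon's criterion), where chance gives about 1 in 20 groups. CKD 2 was the outlying library in 6 of them, always on the high side. It stood at 139 FPKM for Col4a1 where the other CKD mice were at 79.6 to 91.2, and at 121 FPKM for Col4a2 where they were at 71.5 to 81.3. For the type VI chains it reached 51.8 FPKM for Col6a1 (others 34.0 to 37.7) and 49.1 FPKM for Col6a2 (others 30.6 to 32.9). For Col5a1 it was at 13.8 FPKM (others 10.7 to 11.2) and for Col14a1 at 5.97 FPKM (others 3.86 to 4.27). The remaining value was Col23a1 in CKD 1, at 1.03 FPKM where the other CKD mice were at 0.704 to 0.789.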

How the results depend on the processing

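No paired analysis was possible because the replicate numbers follow deposit order and tie no CKD mouse to a Sham mouse. Leaving out 1 library gave 219 to 433 genes called higher (400 with all libraries), 121 to 275 called lower (246), 5 to 11 collagen chains, 0 to 1 modification genes called lower, 1 to 3 export genes, 2 to 3 cross-linking genes and 1 to 2 receptors. Without both CKD 1 and Sham 1, 3 chains, 1 export gene and 1 cross-linking gene were called higher and 0 modification genes lower. A term for CKD 1 and Sham 1, chosen after seeing the data, gave 587 genes called higher, 453 called lower and 1 modification gene called higher. Without a variance trend, and with library weights, 2 receptors were called. Library weights gave 542 genes called higher and 361 called lower.

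Signs changed for 7 genes and 2 ratios, none of which passed as reported. Leaving out 1 library gave log2 ranges of -0.14 to 0.22 for Col5a3, -0.0065 to 0.15 for Col11a2, -0.0063 to 0.13 for Col4a4, -0.10 to 0.036 for Col9a3, -0.10 to 0.021 for Col22a1, -0.033 to 0.053 for Col23a1 and -0.056 to 0.026 for Serpinh1. Col5a3 was at -0.15 with library weights and -0.18 without both CKD 1 and Sham 1. Col23a1 was at -0.015 with quantile normalization, -0.0066 with library weights and -0.042 without both libraries. The ratio of Col6a3 to Col6a1 was -0.0054 with 0.5 added to both, -0.0062 without both libraries and -0.023 to 0.088 with 1 left out. With 0.5 added, Col5a2 over Col5a1 was 0.23 and Col8a2 over Col8a1 was -0.78 (exact permutation, adjusted p = 0.0278 each). The latter comes from a chain below the value added. Col5a2 over Col5a1 passed there only because Col8a2 over Col8a1 also reached the smallest possible p, which lowers the adjusted value of both. Its own difference was 0.24 with nothing added, so this pass adds no support. With 1 library left out, Col8a2 over Col8a1 was -0.68 to 0.12. The cause of the other changes was not tested. The summed collagen level stayed 1.36 to 1.55 times higher in CKD with any 1 library left out. FPKM carry no read counts, and depth was read only relative to Sham 2 and only in 7 libraries, so the precision of low chains is unknown.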
